A study of Mus musculus with 6 samples.

Results

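The array carries probe sets for many microRNA precursor genes besides the deleted miR-15a/16-1 pair. They were taken by name: every probe set whose single annotated gene symbol is Mirlet7 with any suffix, or Mir followed by a number from 1 to 300 with any suffix, leaving out Mir15a, Mir15b, Mir16-1 and Mir16-2. This rule, which used no measured value, found 165 of the 35556 probe sets of the table. Of these, 159 belong to 159 hairpin genes, and 6 belong to long transcripts that carry hairpins (4 probe sets of Mir99ahg, 1 of Mir100hg and 1 of Mir17hg). The RNA came from natural killer (NK) cells of C57Bl/6 mice aged 8 to 12 weeks, sorted from the spleen as YFP+, CD27+, NK1.1+ and CD3-, with 3 arrays for 15a/16-1FKO cells, the knockout below, and 3 for Ctrl cells. YFP was part of the gate in both genotypes. The allele behind the deletion, its Cre driver and any allele that the Ctrl cells carry are not stated in the sources used here. The series' design text describes the replicates of a genotype as technical, but sex-linked transcripts differed widely between arrays of a genotype (values below). Which animals each array holds is not stated, so p-values measured the spread between these arrays, whatever its source.

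MicroRNAs are made from long primary transcripts, from which Drosha and DGCR8 cut hairpins and Dicer then cuts the mature strand. The mature strand guides Argonaute to messenger RNAs, chiefly through its seed, bases 2 to 8. Several hairpins can lie on a single primary transcript and are then made together, though each is cut out and matured on its own. Many hairpins lie inside introns of protein-coding host genes. In lymphocytes miR-142, miR-150, miR-155 and the miR-181 family are among the best studied. A probe set for a precursor gene reads RNA that contains the hairpin, and mature microRNAs were not measured separately, so that a level below is a signal for precursor or primary transcript.

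The sequences that the comparison turns on are those sharing the seed of the deleted pair, and those of the hairpins with the smallest p-values. They are mature strands from RefSeq (GRCm38.p6), printed 5′ to 3′ with the seed in capitals. RefSeq's table held a hairpin for 140 of the 165 probe sets. The deleted pair, its second copy and the relatives with the same seed on the array were:
miR-15a-5p: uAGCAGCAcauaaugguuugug
miR-16-5p: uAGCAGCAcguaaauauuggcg
miR-15b-5p: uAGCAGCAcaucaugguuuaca
miR-195a-5p: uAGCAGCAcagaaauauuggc
miR-497a-5p: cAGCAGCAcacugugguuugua
Among the probe sets described here only Mir195a carries this seed. Its mature strand has the same base as miR-16-5p at 19 of 21 positions, and it shares the leading 9 bases with it. The other strands shown are the 3 of the miR-23a locus and 5 with the seed of miR-17:
miR-23a-3p: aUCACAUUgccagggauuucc
miR-27a-3p: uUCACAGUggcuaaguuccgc
miR-24-3p: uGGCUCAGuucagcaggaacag
miR-17-5p: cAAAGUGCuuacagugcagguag
miR-20a-5p: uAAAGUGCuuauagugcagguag
miR-106a-5p: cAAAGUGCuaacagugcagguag
miR-93-5p: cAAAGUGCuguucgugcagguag
miR-106b-5p: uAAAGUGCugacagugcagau

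The labels were checked on the deleted pair and on NK markers. Mir15a had log2 levels of 4.37, 3.53 and 3.43 in knockout and 7.14, 6.02 and 6.69 in Ctrl arrays, and its difference of -2.84 passed the test (limma, adjusted p = 0.0367). Mir16-1 was lower in each knockout array as well (-0.63, SE 0.19) but did not pass (limma, adjusted p = 0.999). Its mean of 3.08 lay under the background level defined next, so the check on the pair rests on Mir15a. All 11 NK markers, among them Ncr1 and Klrb1c (NK1.1), lay above 4.13, the mean log2 level below which 95% of 1035 olfactory receptor probe sets lay and which is called the background level here. Their mean was 9.95 to 10.23 in knockout and 10.02 to 10.07 in Ctrl arrays. Above background were also 3 of 6 T cell, 1 of 4 B cell, 4 of 6 myeloid, 1 of 2 erythroid and 1 of 3 platelet markers. The 3 T cell markers were CD3 genes, although the cells were sorted as CD3-. Cd3e averaged 6.24 in knockout and 6.43 in Ctrl arrays, Cd3g 6.90 and 6.78, and Cd3d 7.41 and 7.25. Cd4, Cd8a and Cd5 were under background. The means of these lists overlapped between genotypes for T cells, B cells, myeloid and erythroid cells, and for platelets they were 3.46 to 3.58 in knockout and 3.63 to 3.74 in Ctrl arrays. Single markers differed more: the myeloid gene S100a8 was at 7.84 in knockout and 7.07 in Ctrl arrays on average (0.77, SE 0.33; limma, unadjusted p = 0.0453), and the platelet gene Gp5, under background, at 3.37 and 3.73 (-0.36, SE 0.13, unadjusted p = 0.0226). The part of such cells in the values below was not tested. Medians over the whole table lay between 4.23 and 4.33 in all 6 arrays.

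No precursor probe set passed the test between genotypes. Of the 165 probe sets 0 had an adjusted p under 0.05 by limma, where 0.0229% of all 21789 probe sets with a single symbol did (0.0184% higher and 0.00459% lower in the knockout). An unadjusted p under 0.05 was reached by 4 of 165 (2.42%), 2 higher and 2 lower, beside 3.44% of all probe sets. Knockout and Ctrl arrays were fully separated for 13 of 165 (7.88%), beside 8.23% of all probe sets. Of these, 4 were higher in the knockout, with 3.66% of all probe sets in that direction, and 9 were lower, with 4.57% of all. Each of these shares lay near or under its share of all probe sets, so none of them sets the precursors apart. The median difference, knockout minus Ctrl, was -0.02 over the precursors and -0.01 over all probe sets. The SE of a precursor's difference had a median of 0.17 on the log2 scale.

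**Figure D1:**
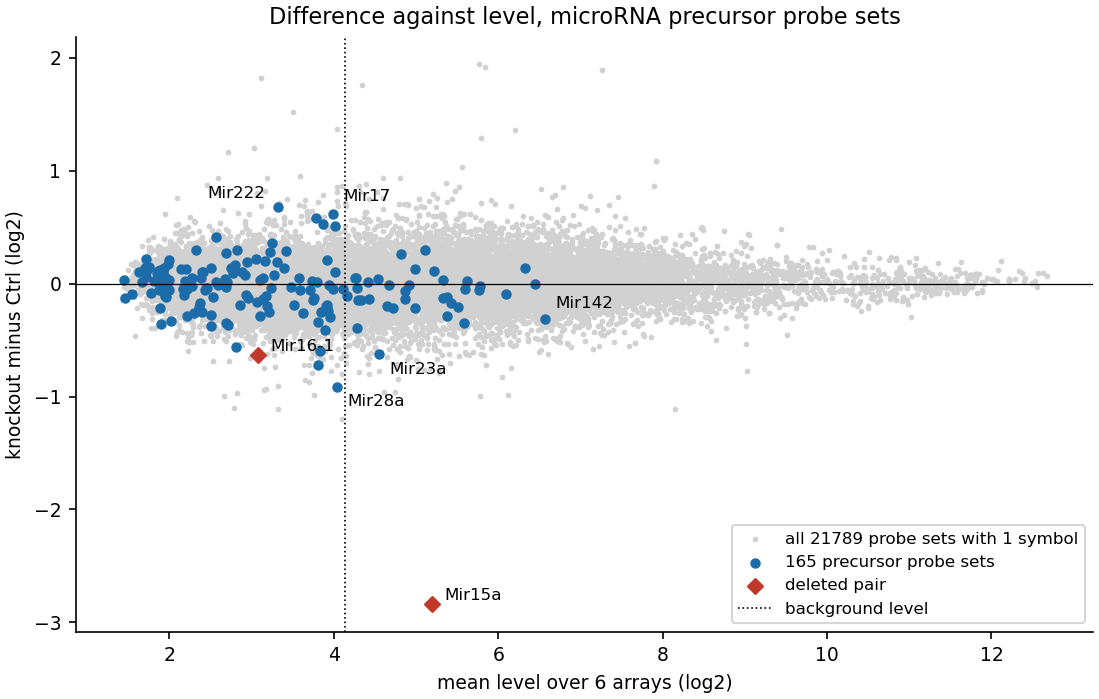
Knockout minus Ctrl difference (y axis, log2) against the mean level over 6 arrays (x axis, log2) for all 21789 probe sets with a single symbol (grey) and the 165 precursor probe sets (blue); red diamonds are Mir15a and Mir16-1. The blue points lie between -0.92 and 0.68, and most of them lie left of the dotted background level of 4.13, while Mir15a stands at -2.84.

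Most precursor probe sets read no more than background. Only 37 of 165 (22.4%) had a mean above 4.13, beside 11989 of all 21789 probe sets, and the median level of the 165 was 3.10. For precursors with numbers over 300 the share was 32.4% of 136; the difference between these shares was not tested. Levels of different probe sets depend on their probes as well as on the RNA, so the order of levels across precursors is a description of signals only. The 8 with the highest means were Mir142 (6.57), Mir139 (6.45), Mir103-2 (6.33), Mir181d (6.09), Mir92b (5.78), Mir210 (5.76), Mir194-2 (5.62) and Mir185 (5.59). None of these passed the test between genotypes, with differences between -0.31 (Mir142, SE 0.77) and 0.14 (Mir103-2, SE 0.39). The 95% intervals of these 2 were wide, from -2.05 to 1.43 for Mir142 and from -0.75 to 1.02 for Mir103-2. The steadiest was Mir185, with levels of 5.48, 5.59 and 5.63 in knockout and 5.78, 5.52 and 5.54 in Ctrl arrays and an interval of the difference from -0.36 to 0.27 (95%, limma).

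Among the 37 probe sets above background, 26 had a negative and 11 a positive difference, with a median of -0.07, while 48.9% of all probe sets above background were negative. This count rested on single arrays, most on Ctrl array 1: without it, 18 were negative and 19 positive, with a median of 0.00. Without knockout array 1, 20 were negative and 17 positive. Ctrl array 1 was the highest of the 6 arrays for 45 of the 165 precursors, and knockout array 1 the lowest for 49.

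The level followed base composition. Over the 140 probe sets with a RefSeq hairpin, the mean level was higher for hairpins with a higher GC content, with Pearson's r = 0.58 and Spearman's rho = 0.60, given as a description, since all points come from the same 6 arrays. Of 44 hairpins with a GC content under 45%, 5 were above background, of 65 between 45 and 55% there were 8, and of 31 at or above 55% there were 19. Hairpins with much G and C included those of Mir210 and Mir92b, while Mir142, Mir103-2, Mir7-1, Mir202 and Mir155 were above background with a GC content between 41.7 and 45.3%. To show the contrast, the hairpins of Mir142 (64 bases, 42.2% GC), Mir210 (110 bases, 69.1% GC) and Mir19a (82 bases, 43.9% GC, mean level 1.66) are printed. Capitals mark the mature strands that RefSeq's table held, which for Mir19a was miR-19a-3p only:
Mir142: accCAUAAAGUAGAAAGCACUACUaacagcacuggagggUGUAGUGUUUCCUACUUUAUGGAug
Mir210: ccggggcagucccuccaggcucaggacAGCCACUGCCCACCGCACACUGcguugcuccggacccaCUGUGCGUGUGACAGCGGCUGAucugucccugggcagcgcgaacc
Mir19a: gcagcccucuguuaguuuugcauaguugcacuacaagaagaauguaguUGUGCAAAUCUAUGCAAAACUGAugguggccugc
The difference between genotypes was only weakly related to GC content (r = -0.14, rho = -0.18). Negative and positive differences numbered 20 and 24 under 45% GC, 33 and 32 between 45 and 55%, and 23 and 8 at or above 55%. Without knockout array 1 the counts at or above 55% were 15 and 16. Whether the relation of level and GC content comes from the probes or from the RNA was not tested.

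**Figure D2:**
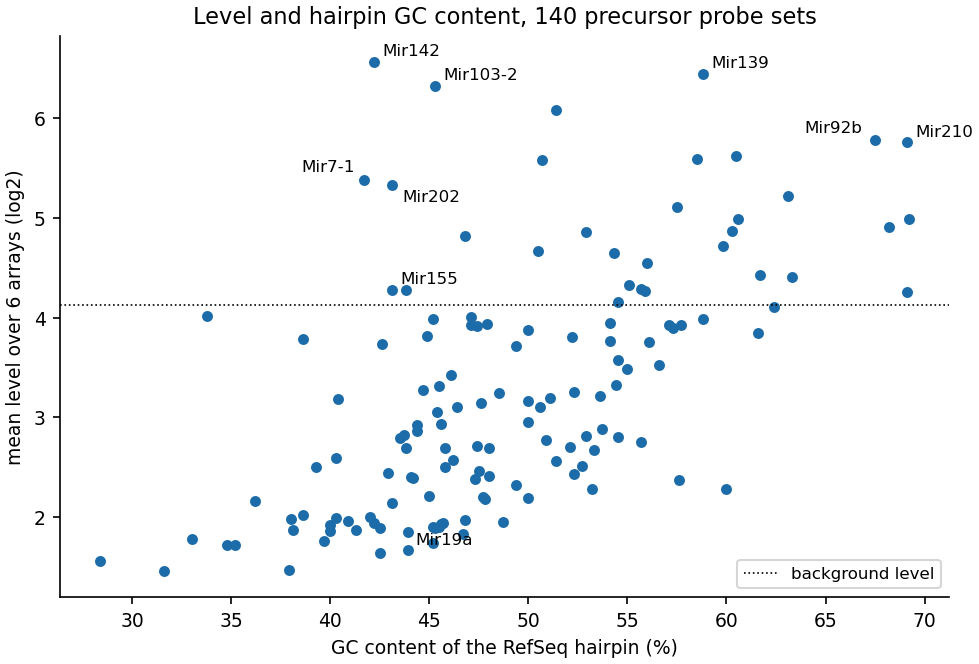
Mean level over 6 arrays (y axis, log2) against the GC content of the RefSeq hairpin (x axis, percent) for 140 precursor probe sets, 1 point each; the dotted line is the background level of 4.13. Points rise to the right (r = 0.58), and Mir142 at 6.57 and Mir103-2 at 6.33 stand above the others of like GC content.

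The remaining relatives of the deleted pair did not pass the test. Mir195a, whose mature strand has the seed of miR-15/16, had log2 levels of 4.42, 4.51 and 4.72 in knockout and 4.70, 5.07 and 4.49 in Ctrl arrays. The groups overlapped, and the difference was -0.20 (95% interval -0.60 to 0.20; limma, adjusted p = 0.999). Mir497, which lies beside Mir195a and shares the seed but has a number over 300, was at 4.17 ± 0.22 in knockout and 4.57 ± 0.37 in Ctrl arrays (mean ± SD, n = 3 each), with a difference of -0.40 (SE 0.20). The second copy of the deleted pair had differences of -0.29 (Mir15b, SE 0.22) and -0.11 (Mir16-2, SE 0.15). The probe sets of Mir15b (mean 3.16) and Mir16-2 (mean 3.38) were under background, so that these values say little about a change in either. The difference of Mir195a depended on single arrays: it was -0.04 without Ctrl array 2 and -0.33 without Ctrl array 3.

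Precursors of microRNAs known to bind the Myb messenger RNA besides miR-15/16 were looked at because the study's title names c-Myb. Mir150, the precursor of a microRNA of mature lymphocytes that represses Myb, had levels of 5.22, 5.28 and 5.53 in knockout and 5.30, 5.55 and 5.70 in Ctrl arrays. The groups overlapped, with a difference of -0.17 (95% interval -0.53 to 0.18), which was -0.28 without Ctrl array 1 and -0.08 without Ctrl array 3. Mir34a, the precursor of a microRNA induced by p53, was lower in each knockout array, at 2.11, 2.32 and 2.40 against 2.47, 2.65 and 2.45, and all of these values were under background. Its difference was -0.25 (SE 0.14, unadjusted p = 0.114 by limma). With Mir195a, 3 of 3 listed precursors had negative differences and 0 of 3 passed.

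The precursor with the smallest p was Mir23a, in the locus of miR-23a, miR-27a and miR-24-2, microRNAs that are abundant in many blood cells. Mir23a had levels of 4.57, 4.01 and 4.15 in knockout and 4.90, 4.81 and 4.88 in Ctrl arrays. All knockout arrays lay below all Ctrl arrays, and the means were 4.24 ± 0.29 and 4.86 ± 0.05 (mean ± SD, n = 3 each). The difference of -0.62 (SE 0.17) had an unadjusted p of 0.00461, which did not hold after adjustment over all probe sets (limma, adjusted p = 0.999). Mir23a was the only one of the 13 precursors without overlap whose mean lay above background, 1 of 37 there. Of all 11989 probe sets above background, 464 were higher and 434 lower without overlap. This count therefore does not set Mir23a apart. Its neighbours had differences of the same sign and overlapped between genotypes: Mir27a was at 4.42, 4.63 and 4.78 in knockout and 4.96, 4.79 and 4.75 in Ctrl arrays (-0.22, SE 0.15). Mir24-2 was at 4.12, 4.58 and 4.37 against 4.70, 4.50 and 4.30 (-0.14, SE 0.17). The 3 mature strands have 3 different seeds, as printed above.

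The other 3 precursors with an unadjusted p under 0.05 had means at 3.87 to 3.99, under background. Mir17, of the miR-17-92 cluster that drives lymphocyte growth, was at 4.58, 4.45 and 3.86 in knockout and 3.65, 3.66 and 3.73 in Ctrl arrays. Knockout arrays were all higher, 2 of them by more than 0.7 and array 3 by little, and the difference was 0.62 (SE 0.19; limma, unadjusted p = 0.0106, adjusted p = 0.999). Mir106b, of the paralogous cluster within the replication gene Mcm7, was lower in all knockout arrays, at 3.73, 3.78 and 3.56 against 4.30, 3.89 and 4.10, a difference of -0.41 (SE 0.15, unadjusted p = 0.0248 by limma). Mir128-1, known mainly from the brain, was higher in all knockout arrays, at 4.50, 3.85 and 4.05 against 3.79, 3.74 and 3.27, a difference of 0.53 (SE 0.21, unadjusted p = 0.0315 by limma). Mir17 and Mir106b yield mature strands with the same seed, AAAGUGC, and their differences had opposite signs.

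**Figure D3:**
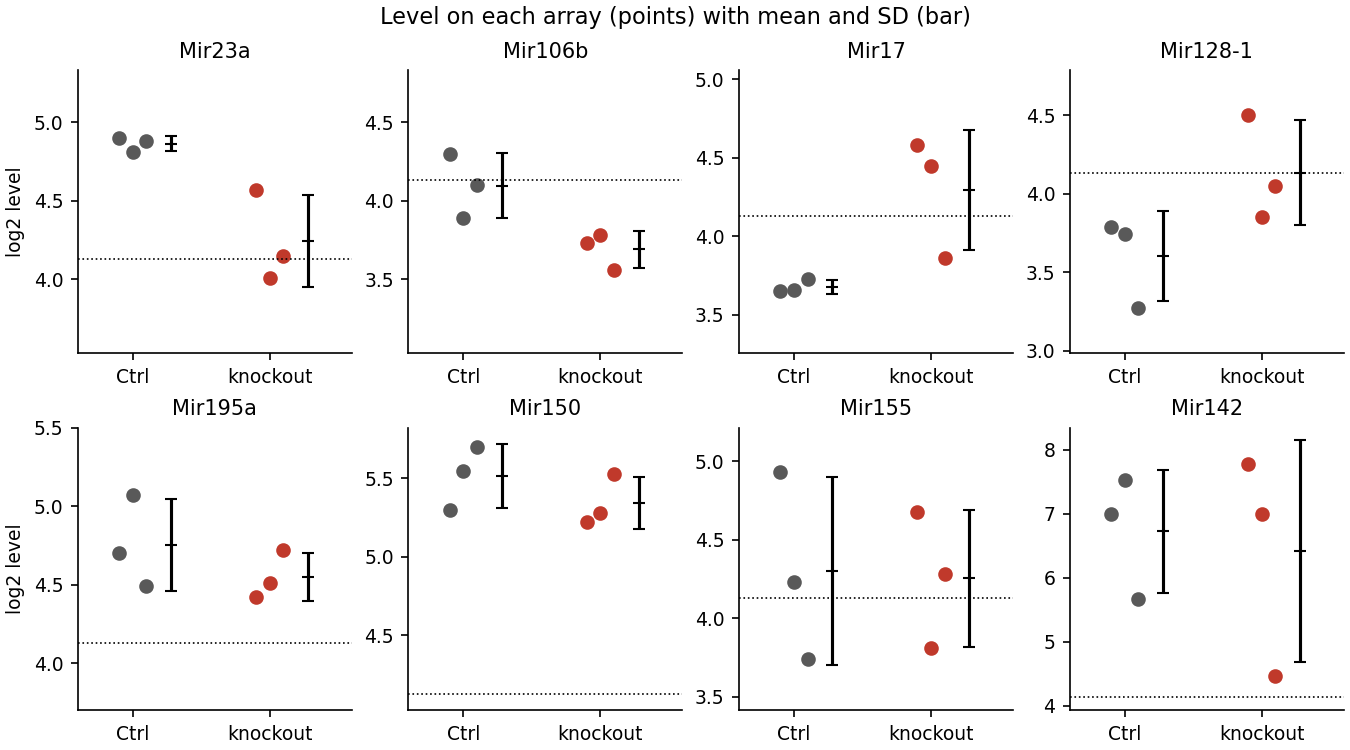
Log2 level (y axis) of 8 precursor probe sets on each Ctrl (grey) and knockout (red) array, with the mean and SD of 3 arrays as a bar and the background level of 4.13 dotted. The groups do not overlap in the upper row (Mir23a, Mir106b, Mir17 and Mir128-1) and overlap in the lower row (Mir195a, Mir150, Mir155 and Mir142), where Mir142 spans 4.47 to 7.78.

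The rest of the 6 higher and 6 lower precursors with the smallest p-values had unadjusted p between 0.0526 and 0.0988 by limma, and all had means under background. On the higher side Mirlet7g, of the let-7 family that marks differentiated cells, was at 3.41, 3.77 and 3.12 against 3.02, 3.10 and 3.10 (0.36, SE 0.18), without overlap. Mir186 (0.51, SE 0.26), Mir32 (0.58, SE 0.32) and Mir200b (0.41, SE 0.22) overlapped between genotypes. The difference of Mir32 came from a single low Ctrl array, at 2.66 beside 4.13 and 3.67, while its knockout arrays lay between 3.95 and 4.15. On the lower side Mir181b-1 (-0.29, SE 0.13) and Mir199b (-0.28, SE 0.13) did not overlap between genotypes, with means of 2.21 and 2.51. Mir297b (-0.60, SE 0.27) and Mir143 (-0.34, SE 0.16) overlapped. Several of these sizes depended on 1 array. Without knockout array 2 Mir186 was 0.82, Mirlet7g 0.19, Mir200b 0.21 and Mir297b -0.34, and without knockout array 3 Mir186 was 0.28. Without Ctrl array 3 Mir32 was 0.17, and without Ctrl array 1 it was 0.91.

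Hairpins of a shared locus were compared by the sign of their differences. Only the 140 probe sets with a RefSeq hairpin had a position for this. The other 25, among them Mir99b, Mir30b and Mir30d, could enter no locus, so the counts do not cover them. Among the 140 there were 25 loci with 2 or more hairpins within 10 kb of the next on the same strand, holding 60 of them. Differences had a single sign in 13 loci and both signs in 12. Over all 165 precursors the median absolute difference was 0.13 and the median SE 0.17. Signs of such small differences cannot show whether hairpins of a locus moved together. In the miR-17-92 cluster, where 5 hairpins had probe sets of their own, Mir17 differed by 0.62, Mir19b-1 by 0.30 (SE 0.20), Mir19a by 0.01 (SE 0.15), Mir18 by -0.03 (SE 0.30) and Mir20a by -0.35 (SE 0.37). Mir17hg, the long transcript that carries them, was at 4.14, 3.75 and 4.17 in knockout and 3.89, 3.63 and 3.92 in Ctrl arrays, a difference of 0.21 (SE 0.16) with overlapping groups. Leaving out 1 array moved it to between 0.11 (without Ctrl array 2) and 0.34 (without knockout array 2), and moved Mir19b-1 to 0.11 without knockout array 3. In the cluster within Mcm7, Mir25 (0.11, SE 0.15) and Mir93 (-0.15, SE 0.26) lay on both sides of 0 beside Mir106b, and the host Mcm7 differed by 0.18 (unadjusted p = 0.244 by limma). The X-linked cluster of Mir106a, Mir20b, Mir19b-2 and Mir92-2 lay between 0.01 and 0.13, with means between 1.87 and 2.57. Of all 12 probe sets listed for these clusters, 8 lay above 0 and 4 below, around a median of 0.01. After a further quantile normalization the count was 6 and 6.

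**Figure D4:**
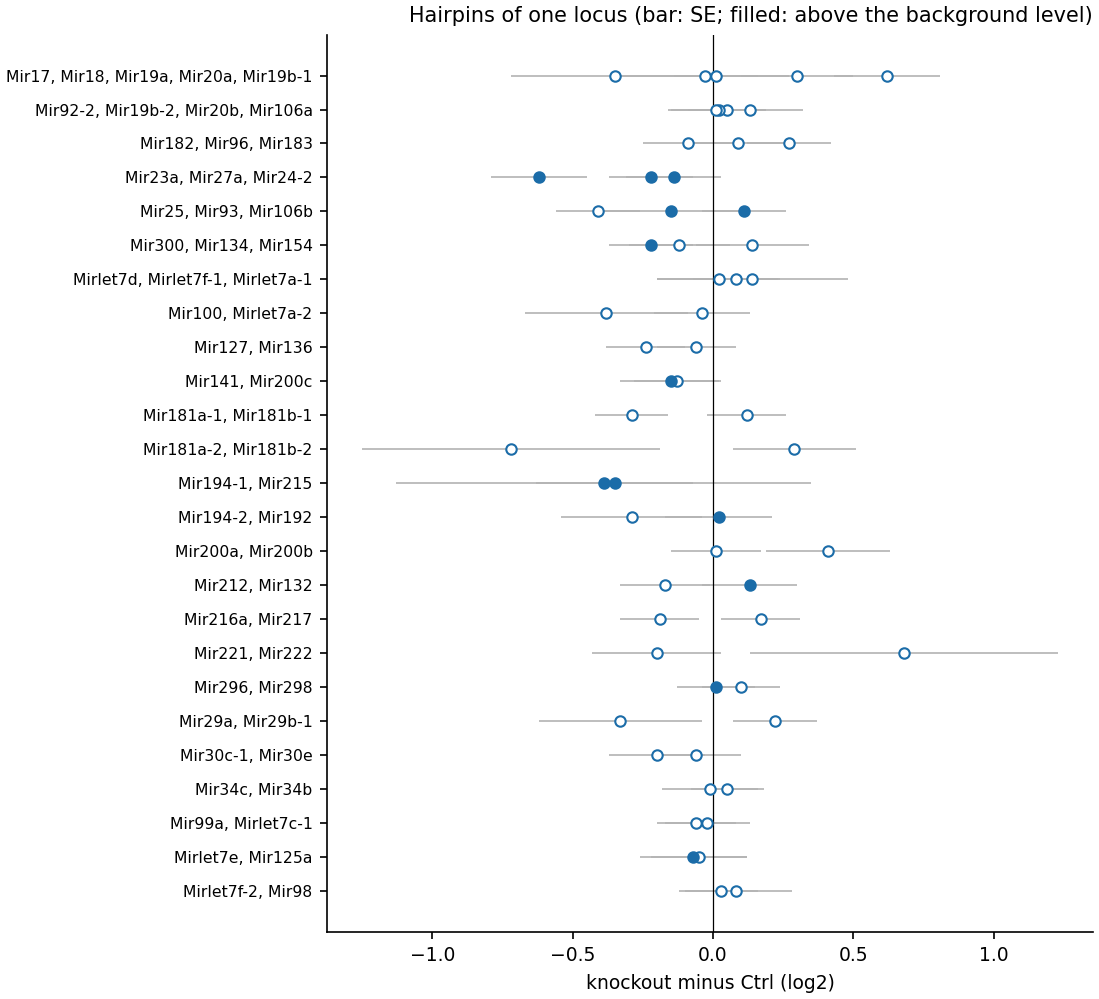
Knockout minus Ctrl difference (x axis, log2) of each hairpin in 25 loci with 2 or more hairpins (1 row a locus, hairpins named at the left). Only probe sets with a RefSeq hairpin could enter. Bars are SEs and filled points have a mean above the background level of 4.13. The points of the miR-17-92 row spread from -0.35 to 0.62, and the 3 points of the miR-23a row are all filled and lie between -0.62 and -0.14.

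Hairpins were also set beside their host genes. Hosts were looked for only for the 140 probe sets with a RefSeq hairpin, and the other 25 were not searched. A host gene on the same strand was found for 51 of the 140, and 43 had a host with a value, 37 hosts in all. Of 29 hairpins in a host above background, 7 were above background themselves, beside 37 of all 165 precursors (22.4%). Over the 43 pairs the signs of the differences matched in 22. Pearson's r was 0.06 for the differences and 0.29 for the mean levels. Both are a description only, because hairpins of a shared host repeat its value. For the precursors with small p-values, R3hdm1 (host of Mir128-1) differed by 0.13, Wdr82 (Mirlet7g) by -0.13, Zranb2 (Mir186) by 0.08 and Tmem245 (Mir32) by 0.14. Their unadjusted p-values were 0.424, 0.473, 0.699 and 0.477 by limma. Of the 37 hosts only Egfl7, an endothelial gene that hosts Mir126a, had an unadjusted p under 0.05 by limma, beside 3.44% of all probe sets. This count therefore does not set the hosts apart. Egfl7 was at 3.73, 4.33 and 4.40 in knockout and 4.87, 4.42 and 4.75 in Ctrl arrays. Its difference was -0.53 (SE 0.21, limma, unadjusted p = 0.0311, adjusted p = 0.999). Mir126a itself was at 1.84, 1.57 and 1.74 against 1.71, 1.90 and 2.62, under background and with overlap.

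Precursors of microRNAs studied in NK cells and lymphocytes were taken as a list. Of its 24 measured probe sets 8 were above background, 0 passed, 6 lay above 0 and 18 below, and the median was -0.11, beside -0.01 over all probe sets. Without Ctrl array 1 the counts were 12 and 12, with a median of -0.02. Mir155, needed for NK cell expansion in infection, had levels of 4.68, 3.81 and 4.28 in knockout and 4.93, 4.23 and 3.74 in Ctrl arrays, a difference of -0.04 (95% interval -0.74 to 0.66). Mir142, found in all blood cells, was at 7.78, 7.00 and 4.47 in knockout and 7.00, 7.52 and 5.66 in Ctrl arrays. Array 3 was the lowest in both genotypes, and the difference of -0.31 had a 95% interval from -2.05 to 1.43. Its sign turned without knockout array 3 (0.66) and without Ctrl array 2 (0.09). The 6 probe sets of the miR-181 family, which tunes lymphocyte signalling, lay between -0.72 (Mir181b-2) and 0.29 (Mir181a-2), which are neighbours in a single locus. The value of Mir181b-2 rested on Ctrl array 3, at 5.54 beside 3.55 and 3.42. Mir29b-1 differed by 0.22 (SE 0.15) at a mean of 1.71.

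Other families had differences on both sides of 0. In the let-7 list 6 of 11 probe sets lay above 0 and 5 below, the median being 0.02. Only 1 of the 11, Mirlet7g, did not overlap between genotypes, beside 8.23% of all probe sets, and its mean was under background. The 6 of the miR-30 family lay between -0.20 and 0.04. Of 12 precursors known from myeloid, erythroid and platelet cells 7 lay above 0 and 5 below, between -0.19 and 0.15, and 2 were above background. Of 20 known from muscle, liver and nervous tissue 2 were above background, and of 19 known from epithelia and pancreas 7 were. These tissues are not part of the sort. The hairpins above background in these lists ranged in GC content from Mir7-1 (41.7%) and Mir215 (43.8%) to Mir194-2 (60.5%) and Mir212 (69.2%). The genes that make and use microRNAs, from Drosha and Dgcr8 to Dicer1 and the Argonautes, had 23 probe sets, of which 0 passed. They lay between -0.34 (Tarbp2, which also has a second probe set at 0.01) and 0.24 (Ago1), with a median of 0.07. Dicer1 was higher in all knockout arrays, at 7.40 against 7.20 on average (0.20, SE 0.14; limma, unadjusted p = 0.187). It was the only 1 of the 23 without overlap, beside 8.23% of all probe sets.

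Position relative to the deleted locus was examined because all 5 probe sets past the threshold, of the 4 genes Mir15a, Gfra2, Mtmr9 and Rcbtb2, lie on chromosome 14 of GRCm38.p6. Of the precursors 7 lie there, and all 7 had means under background: Mir208a (a heart muscle precursor), Mir17hg and the 5 hairpins of its cluster. Mir17 was the 194th measured gene from Mir15a, on the side of Gfra2, Mtmr9 and Rcbtb2, and Mir208a the 103rd on the other side. Mir208a was at 2.09, 2.23 and 3.08 in knockout and 2.34, 2.22 and 1.94 in Ctrl arrays (0.30, SE 0.25). An unadjusted p under 0.05 was reached by 1 of the 7, Mir17, and by 5.37% of all 745 probe sets on that chromosome. On the X chromosome, 10 of 11 precursors lay above 0, around a median of 0.05, and 0 passed; without knockout array 3 the count was 5 of 11. Sex-linked transcripts varied within genotypes: Xist less the averaged log2 level of 3 Y-linked genes (Eif2s3y, Kdm5d, Uty) was 0.66, 3.11 and 4.03 in knockout and 6.72, -2.86 and 3.66 in Ctrl arrays. With that value as a covariate the X-linked count was again 10 of 11.

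Precursor probe sets stood out by their spread between arrays of a single genotype. The SD within genotypes exceeded 0.5 for 15 of 165 (9.09%), beside 3.08% of all probe sets, 2.13% of olfactory receptors and 12.5% of precursors with numbers over 300. Above background the shares were 16.2% of the 37 precursors and 3.89% of all. The medians were close, at 0.21 and 0.20, so the excess lay in a few probe sets. They included Mir142 (SD 1.40), Mir215 (1.34), Mir140 (1.13), Mir202 (1.08), Mir222 (0.99), Mir181b-2 (0.95) and Mir28a (0.94). The arrays that departed differed from precursor to precursor. Mir215, a gut and kidney precursor, was at 6.40 on Ctrl array 1 and between 3.30 and 5.08 elsewhere. Mir140, a cartilage precursor within Wwp2, was at 4.81 on that array and between 2.08 and 3.19 elsewhere. Mir222 was at 5.23 on knockout array 1 and between 2.61 and 3.19 elsewhere, while its neighbour Mir221 was at 4.32 there and between 3.44 and 4.28 elsewhere. Mir28a was at 5.95 on Ctrl array 3 and between 3.18 and 3.98 elsewhere, which gave the lowest difference of all precursors, -0.92, with an SE of 0.52. Mir202 was at 6.67, 5.21 and 3.91 in knockout and 5.93, 4.69 and 5.57 in Ctrl arrays. The highest difference, 0.68 for Mir222 (SE 0.55), likewise came from a single array.

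**Figure D5:**
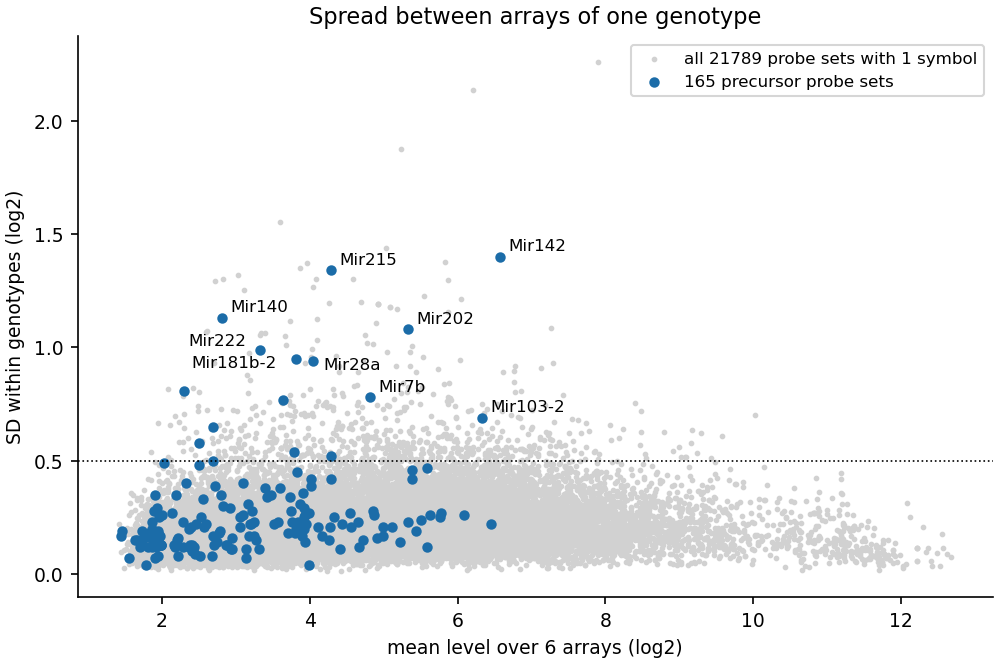
SD within genotypes (y axis, log2) against the mean level over 6 arrays (x axis, log2) for all 21789 probe sets with a single symbol (grey) and the 165 precursor probe sets (blue); the dotted line marks an SD of 0.5. A few precursors, with Mir142 at 1.40 and Mir215 at 1.34 the highest, stand above the line while most blue points lie within the grey cloud.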

How the data were processed

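The deposited table holds log2 expression values of 35556 probe sets on 6 Affymetrix arrays; per the submitters' processing notes RMA and Partek 6.6 were used, without their roles. No genome build was named in those sources. RMA subtracts background, quantile-normalizes and summarises probes, and compresses differences of dim probe sets. GEO's platform annotation gave 1 symbol to 21789 probe sets, several to 1621, and did not list 12146. Hairpins and mature strands (RefSeq, GRCm38.p6) were matched by gene identifier, and hosts and loci by position in that assembly. Genotypes were compared with limma 3.58.1 in R 4.3.3 (lmFit, eBayes, two-sided) over the 21789 probe sets, genotype as the only term, without a filter, with Benjamini-Hochberg adjustment and a threshold of 0.05. The fit was tested on simulated data.

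Named precursors are the 6 higher and 6 lower by p, the 8 with the highest mean, up to 4 of each main list, and those on chromosome 14. Others, such as those with a large spread and Egfl7, were named with their values in view. The members and lists were chosen with earlier results of these data known. Same-numbered arrays of the 2 genotypes had correlated deviations of 0.07, 0.16 and 0.15 over all tested probe sets, which does not establish pairing, and no block was used. Alternatives were further scaling, other sets of probe sets, a replicate block, other variance settings, a sex-linked covariate and leaving out each array; sign counts under these were added after seeing the data.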

Additional observations from a re-analysis of the deposited data

How the results depend on the processing

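The count of precursors past an adjusted p of 0.05 by limma was 0 in each of the 16 fits, while between 1 and 8 had an unadjusted p under 0.05. That second count was 4 with all arrays, 7 with the replicate number as a block, 7 with a trended and robust prior, 4 to 8 when an array was left out, and 1 when only the 37 probe sets above background were tested, which leaves fewer to count. The count without overlap, 13 with all arrays, was 1 among those 37 and 24 to 29 when an array was left out, since fewer arrays overlap less often. The median difference stayed between -0.07 and 0.02. Among 30 named precursors, outside the fits that leave out an array, 245 of 251 values kept their sign and 6 turned: Mir139 to 0.006 by centring and 0.013 with array weights, Mir19a to -0.009 by a further quantile normalization and -0.008 with array weights, Mir194-2 to -0.003 by that normalization, and Mir92b to 0.01 with array weights. Leaving out an array turned the sign of 12 precursors, whose values then ranged from -0.99 to 0.66 (Mir142), -0.088 to 0.137 (Mir139), -0.30 to 0.52 (Mir103-2), -0.20 to 0.12 (Mir181d), -0.19 to 0.19 (Mir92b), -0.19 to 0.081 (Mir210), -0.083 to 0.171 (Mir194-2), -0.095 to 0.038 (Mir185), -0.835 to 0.053 (Mir20a), -0.007 to 0.488 (Mir208a), -0.26 to 0.34 (Mir18) and -0.079 to 0.077 (Mir19a). Mir23a ranged from -0.79 to -0.51 over all fits, with unadjusted p between 0.000698 and 0.0202 and adjusted p of 0.743 or more by limma, and Mir17 from 0.48 to 0.84, with unadjusted p between 0.000475 and 0.0426. The replicate block changed no call. In the check of pairing every array correlated best with the array of its own number, a hint from the data and not from the design. With 3 arrays a genotype and 128 of 165 precursors under background, small changes of a precursor were not detectable.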

Other observations

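Another 13 probe sets carry several symbols, of which at least 1 meets the naming rule, and were left out of the counts above. In a fit over every probe set of the table, 8 had positive and 5 negative differences, 0 passed, and 0 had an unadjusted p under 0.05 (limma). The probe set shared by Mir92-1, the remaining hairpin of the miR-17-92 cluster, and Mir17hg was at 3.28, 4.48 and 3.86 in knockout and 3.37, 3.63 and 3.50 in Ctrl arrays, a difference of 0.38 (SE 0.30). The probe set of Mir23b, the paralog of Mir23a within Aopep, was at 4.08, 4.72 and 4.56 in knockout and 6.28, 5.15 and 4.51 in Ctrl arrays, a difference of -0.86 (SE 0.45) with overlapping groups. Its neighbours Mir27b and Mir24-1, which share probe sets with Aopep too, differed by -0.31 (SE 0.17) and 0.08 (SE 0.21). Mir29b-2 and Mir29c, which share a primary transcript, differed by 0.73 (SE 0.49) and 0.10 (SE 0.64), and the second of these ranged from 4.67 to 6.96 within the knockout arrays.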
